A study of Mus musculus with 24 samples.

Results

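The proteasome genes described here are the mouse genes whose annotated symbol starts with Psma, Psmb, Psmc, Psmd, Psme, Psmf or Psmg. One gene with the Psme prefix was left out by that rule and is not analysed here, and Psmf1 is not analysed here either. The array annotation named 48 such genes, of which 41 were tested among 10759 genes in all. The other 7 (Psma1, Psma3, Psma6, Psmb11, Psmc6, Psmd3 and Psmg4) were above background on too few arrays to be tested. RNA of spermatids from mice aged 7 weeks was measured on Illumina bead arrays in 4 groups of 6 arrays: condensing spermatids with a knockdown of CBP and p300 after meiosis, condensing spermatids of wild type, round spermatids with the knockdown, and round spermatids of wild type. CBP and p300, the products of Crebbp and Ep300, are histone acetyltransferases. Round spermatids are young haploid germ cells, and condensing spermatids are older ones that pack their chromatin tightly. What drives the knockdown, how the cells were separated and whether replicates were separate animals is not stated in the labels. The p-values therefore measure only the spread between these samples, which may be technical.

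The proteasome is the protease complex that degrades proteins tagged with ubiquitin. Its barrel-shaped core has outer rings of alpha subunits and inner rings of beta subunits, a few of which cut the substrate. A regulatory particle with a base of ATPases and a lid recognises ubiquitin and unfolds the substrate, while activators of the PA28 family open the core without ubiquitin. The inducible beta subunits, known from immune cells and from interferon treatment, replace the catalytic ones in newly built cores. Male germ cells are known for a testis form of the core that carries Psma8 in place of Psma7.

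Levels are background-corrected, quantile-normalized log2 intensities, so that a difference of 1 is a doubling, and the 3 levels given for a group are its lowest, median and highest array. Errors of differences are standard errors. A gene was called at an adjusted p under 0.05 in limma's moderated two-sided test, with Benjamini-Hochberg adjustment over all 10759 genes. Detected probes numbered 15687 to 18411 per array. No loss of the targeted transcripts was seen: the knockdown minus wild-type difference of Crebbp was -0.11 ± 0.17 in condensing and 0.01 ± 0.17 in round spermatids, and that of Ep300 was -0.02 ± 0.17 and 0.05 ± 0.17. All 10 spermatid markers examined, among them Tnp1, Prm1 and Acr, were measured. Their mean level was 13.07 to 13.20 on condensing arrays and 13.29 to 13.48 on round arrays. In condensing cells 5 of them were called lower and 2 higher in the knockdown, and 5 lower and 3 higher in wild type. In round spermatids, knockdown replicates 8 and 10 and wild-type replicate 3 stood apart, with mean proteasome gene levels of 8.85, 8.76 and 8.79, below every other array. Over all genes, their mean correlation with the other arrays of their group was also low, at 0.980, 0.979 and 0.978. Every other round array had 0.983 or more. Not every proteasome gene was low on the 3 arrays. Psmd1, at 12.07, 12.17 and 12.33, and Psmd13 were higher there than on every other round array. Calls that changed without these 3 arrays are named with the groups they belong to. The arrays were set apart by the levels of these same genes. Such calls therefore show how results depend on the arrays and are no separate support.

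**Figure D1:**
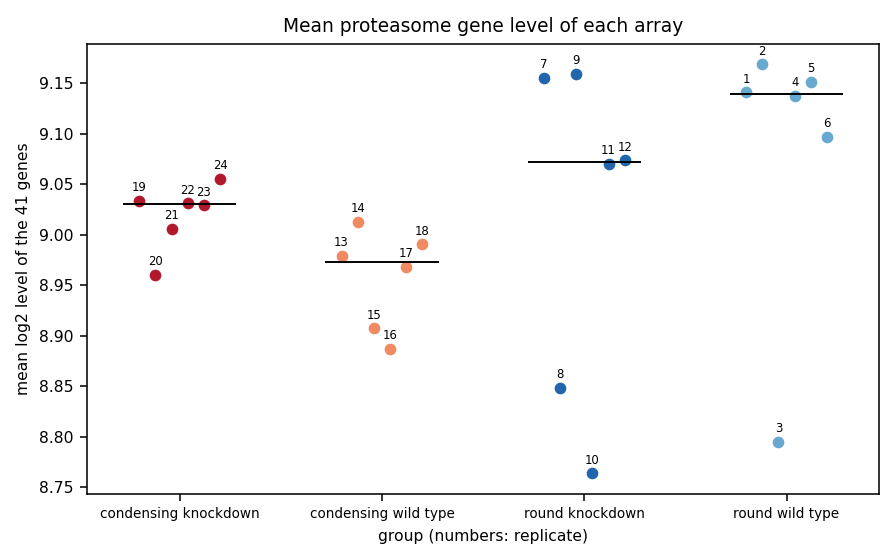
Mean log2 level of the 41 tested proteasome genes on each array (vertical axis) in the 4 groups (horizontal axis); numbers are replicates and bars are group medians. Round knockdown replicates 8 and 10 and round wild-type replicate 3 lie at 8.85, 8.76 and 8.79, below every condensing array.

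Condensing spermatids were compared with round spermatids to see how the parts of the proteasome change as the cells mature. In the knockdown 20 of the 41 genes were called, 8 of them higher and 12 lower in condensing cells, against 62.9% of all genes, 30.5% higher and 32.4% lower. In wild type 28 were called, 9 higher and 19 lower, against 64.2% of all genes, 30.3% higher and 33.8% lower. The members' shares were 48.8% in the knockdown and 68.3% in wild type. Their median stage difference was -0.18 in the knockdown and -0.24 in wild type, where the medians of all genes were -0.01 and -0.03. In bulk samples, fewer cells of a type and less RNA per cell cannot be told apart.

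Rises were called in most roles: the alpha ring, the standard and inducible beta subunits, the activators and the assembly chaperones. In the knockdown Psmd14 of the regulatory particle was called higher too, while no base ATPase rose at the probe used. The activators Psme1 and Psme2, the alpha subunit Psma7, the inducible beta subunit Psmb10 and the chaperone Psmg3 were called higher in condensing cells in both genotypes and under 3 ways of scaling the arrays. Psma2 and Psmb3 were also called higher in both, but in wild type both turned sign under median scaling over all probes. Of the 11 genes called lower in both genotypes, 7 belong to the regulatory particle and 2 are assembly chaperones. The other 2, Psmc3ip and Psme3ip1, carry the prefix but were placed in none of these roles. Psmc2 among the 11 turned sign under a scaling over detected probes. By role, 2 of 5 base ATPases and 6 of 10 other subunits were lower in the knockdown, and 3 of 5 and 5 of 10 in wild type. Of all genes, 32.4% were lower in the knockdown and 33.8% in wild type. All condensing arrays lay above all round arrays of the same genotype for 6 members in the knockdown and 4 in wild type (19.5% and 20.8% of all genes), and below them for 7 and 8 members (21.2% and 22.3%).

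**Figure D2:**
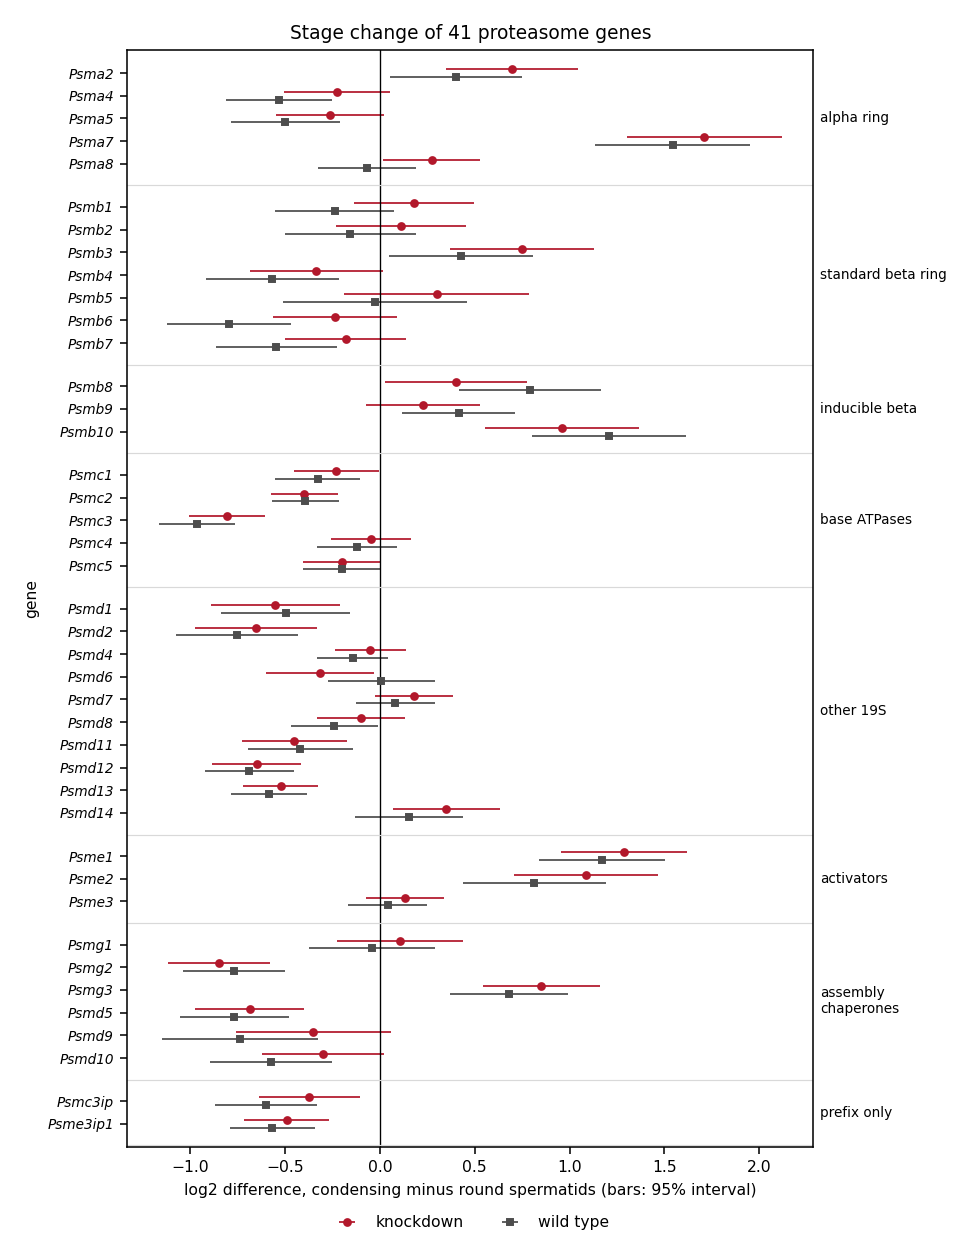
Condensing minus round log2 difference of the 41 tested genes (horizontal axis; bars are 95% intervals), grouped by role, in the knockdown and in wild type. The inducible beta subunits and the activators lie above 0 and the base ATPases below 0 in both genotypes under quantile normalization.

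In the alpha ring, which gates the core, 5 of 8 annotated genes were tested. In the knockdown 2 were higher and 0 lower, where 30.5% of all genes were higher and 32.4% lower. In wild type 2 were higher and 2 lower, where the shares of all genes were 30.3% and 33.8%.

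Psma7, an alpha subunit of the core, had the largest rise of the members. Its levels were 8.30, 8.69 and 9.0 in condensing knockdown cells and 8.23, 8.54 and 8.75 in condensing wild type, against 5.88, 7.30 and 7.44 in round knockdown cells and 6.38, 7.08 and 7.21 in round wild type. Every condensing array lay above every round array. The stage difference was 1.71 ± 0.20 in the knockdown (adjusted p = 2.18e-08) and 1.54 ± 0.20 in wild type (adjusted p = 1.33e-07), or 3.27-fold and 2.92-fold. A second Psma7 probe gave 1.87 in the knockdown and 1.45 in wild type.

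Psma8, the testis form of the same subunit, was measured at 9.03, 9.21 and 9.63 in condensing knockdown cells and 8.70, 9.01 and 9.30 in condensing wild type, against 8.67, 8.95 and 9.24 in round knockdown cells and 8.86, 9.07 and 9.31 in round wild type. The groups overlapped throughout. Its stage difference was 0.27 ± 0.13 in the knockdown (adjusted p = 0.0611) and -0.07 ± 0.13 in wild type (adjusted p = 0.656). A second Psma8 probe was called higher in both genotypes, at 0.68 ± 0.13 in the knockdown and 0.47 ± 0.13 in wild type, so the result for this gene depended on the probe.

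Psma4 had levels of 9.91, 10.06 and 10.59 in condensing knockdown cells and 9.86, 10.08 and 10.26 in condensing wild type, against 9.93, 10.38 and 10.66 in round knockdown cells and 10.18, 10.68 and 10.93 in round wild type. The groups overlapped, and its stage difference was -0.23 ± 0.14 in the knockdown (adjusted p = 0.146) and -0.53 ± 0.14 in wild type (adjusted p = 0.00118). Psma5 gave -0.27 ± 0.14 in the knockdown (adjusted p = 0.0992) and -0.50 ± 0.14 in wild type (adjusted p = 0.00267). Psma2 gave 0.70 ± 0.17 in the knockdown (adjusted p = 7.53e-04) and 0.40 ± 0.17 in wild type (adjusted p = 0.0401).

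**Figure D3:**
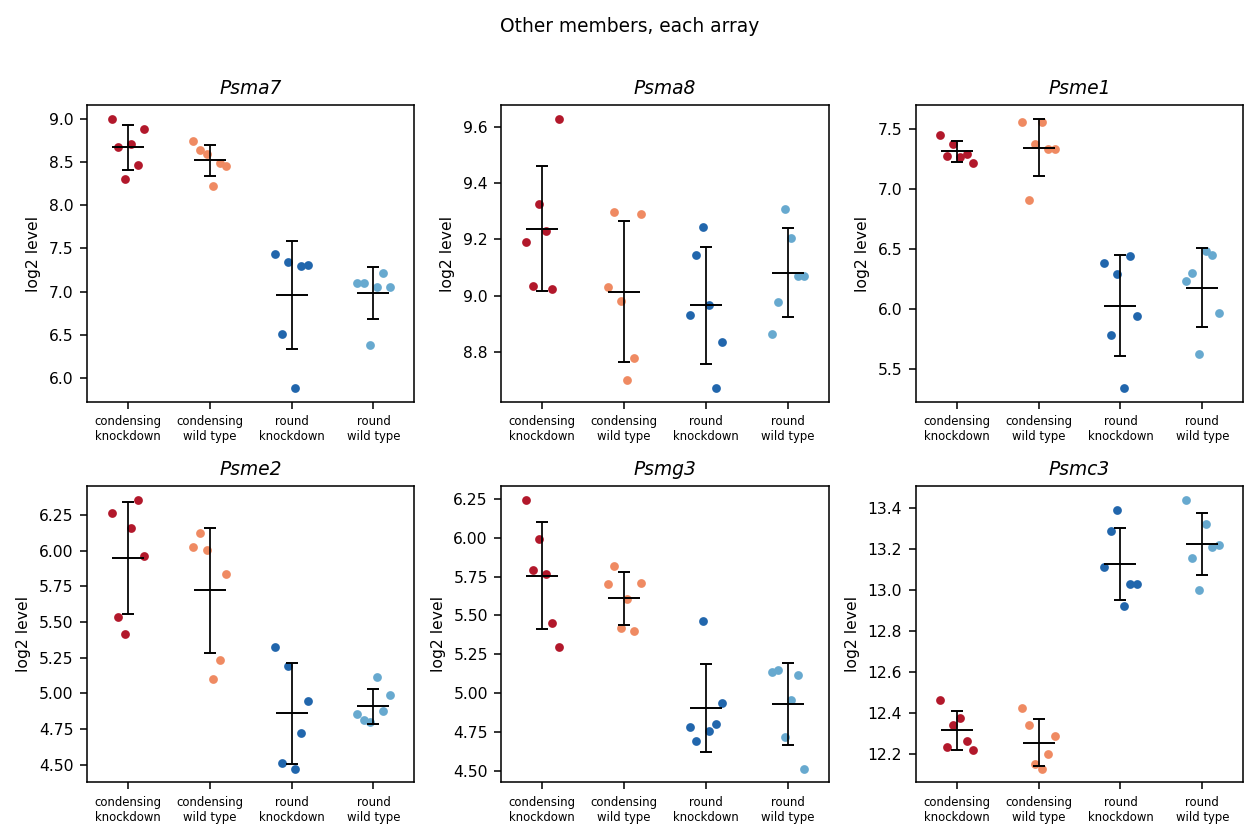
Log2 level on each array (vertical axes) of Psma7, Psma8, Psme1, Psme2, Psmg3 and Psmc3 in the 4 groups of 6 arrays; crosses are mean and SD. Psma7 and Psme1 are higher and Psmc3 is lower on every condensing array than on any round array, while the Psma8 groups overlap.

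The catalytic sites of the beta ring come in a standard and an inducible form: Psmb8 takes the place of Psmb5, Psmb9 that of Psmb6, and Psmb10 that of Psmb7. The promoters of Psmb8, Psmb5 and Psmb6 are shown because the first is an inducible subunit and the others are standard ones whose promoters hold a site type known from proteasome genes. Each runs from 250 bases before to 50 after the gene start in RefSeq (GRCm38.p6), written 5′ to 3′ on the strand of the gene. Capitals mark matches to TGACNNNGC, the core of the antioxidant response element, which the transcription factors NRF1 and NRF2 bind.
Psmb8 (chr17:34197945-34198244, plus strand): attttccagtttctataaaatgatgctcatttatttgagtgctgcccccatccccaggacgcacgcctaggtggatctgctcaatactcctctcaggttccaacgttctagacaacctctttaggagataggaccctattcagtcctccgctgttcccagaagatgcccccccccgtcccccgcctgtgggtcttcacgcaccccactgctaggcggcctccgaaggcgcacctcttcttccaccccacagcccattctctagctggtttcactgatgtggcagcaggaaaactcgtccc
Psmb5 (chr14:54617946-54618245, minus strand): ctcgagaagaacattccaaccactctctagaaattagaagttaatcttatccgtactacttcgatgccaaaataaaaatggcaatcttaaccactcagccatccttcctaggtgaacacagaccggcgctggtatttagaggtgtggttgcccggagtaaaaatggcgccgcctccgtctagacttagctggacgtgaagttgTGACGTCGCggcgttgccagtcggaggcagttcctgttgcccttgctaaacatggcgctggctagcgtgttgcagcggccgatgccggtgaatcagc
Psmb6 (chr11:70525107-70525406, plus strand): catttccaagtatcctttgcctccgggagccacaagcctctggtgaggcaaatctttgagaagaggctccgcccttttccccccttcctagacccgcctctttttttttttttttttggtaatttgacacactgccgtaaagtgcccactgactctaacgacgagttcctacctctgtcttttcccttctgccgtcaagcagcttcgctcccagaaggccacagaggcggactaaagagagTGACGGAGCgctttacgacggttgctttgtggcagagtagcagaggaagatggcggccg
Promoters were found for 34 of the 41 genes. On either strand, TGACNNNGC was in 4 of 37 member promoters (Psmb5, Psmb6, Psmd9 and Psmd12), or 10.8%, against 12.4% of all 32851 promoters. The full cAMP response element, TGACGTCA, which shares its opening TGAC with that motif, was in 0 member promoters, against 1.79% of all. A match describes the letters and is not a bound site. In the RefSeq gene table Psmb8 lies between Tap1 and Tap2 on chromosome 17, and Psmb9 lies beside Tap1.

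All 3 tested inducible subunits were called higher in condensing cells of wild type, and 1 of the 3 in the knockdown. Of all genes, 30.3% and 30.5% were called higher. The counts do not show that the genotypes differ, as the difference between the knockdown effects was called for 0 of the 3. Psmb10 levels were 6.44, 6.59 and 7.13 in condensing knockdown cells and 6.53, 6.68 and 7.15 in condensing wild type, against 4.75, 5.78 and 6.23 in round knockdown cells and 5.07, 5.50 and 6.09 in round wild type. Every condensing array was above every round array. The stage difference was 0.96 ± 0.20 in the knockdown (adjusted p = 1.23e-04) and 1.21 ± 0.20 in wild type (adjusted p = 5.44e-06), or 1.94-fold and 2.31-fold.

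Psmb8 was measured at 4.74, 5.70 and 5.92 in condensing knockdown cells and 5.23, 5.90 and 6.20 in condensing wild type, against 4.74, 5.16 and 5.55 in round knockdown cells and 4.53, 5.03 and 5.25 in round wild type. The stages overlapped in both genotypes. Its stage difference was 0.40 ± 0.18 in the knockdown (adjusted p = 0.0578) and 0.79 ± 0.18 in wild type (adjusted p = 4.14e-04). The knockdown difference was called in 6 of 35 alternative settings. This probe was detected on 11 of 12 condensing and 7 of 12 round arrays.

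Psmb9 lay near background, detected on 5 of 12 condensing and 1 of 12 round arrays. Its levels were 4.60, 4.91 and 5.32 in condensing knockdown cells and 4.64, 5.33 and 5.56 in condensing wild type, against 4.48, 4.69 and 5.07 in round knockdown cells and 4.59, 4.73 and 5.03 in round wild type. On all round wild-type arrays it was not well above background, and in condensing wild type it was at least 1.08-fold higher (adjusted p = 0.015), with measured means of 5.18 and 4.76. The difference in the knockdown was 0.23 ± 0.15 (adjusted p = 0.183).

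The standard beta ring, with 7 genes tested, had 1 higher and 0 lower in the knockdown and 1 higher and 3 lower in wild type. The shares of all genes were 30.5% higher and 32.4% lower in the knockdown, and 30.3% and 33.8% in wild type. Psmb6, the caspase-like site, had levels of 11.27, 11.39 and 11.56 in condensing knockdown cells and 11.02, 11.19 and 11.48 in condensing wild type, against 10.91, 11.83 and 12.02 in round knockdown cells and 11.45, 12.15 and 12.30 in round wild type. The stages overlapped in both genotypes, in wild type only through replicate 3 of the round group. Its stage difference was -0.24 ± 0.16 in the knockdown (adjusted p = 0.202) and -0.79 ± 0.16 in wild type (adjusted p = 8.56e-05). A second probe gave -0.20 in the knockdown and -0.73 in wild type.

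Psmb7, the trypsin-like site, had levels of 10.76, 11.08 and 11.34 in condensing knockdown cells and 10.76, 10.93 and 11.35 in condensing wild type, against 10.69, 11.37 and 11.61 in round knockdown cells and 10.87, 11.65 and 11.72 in round wild type. Overlap was again present in both genotypes. The stage difference was -0.18 ± 0.16 in the knockdown (adjusted p = 0.322) and -0.55 ± 0.16 in wild type (adjusted p = 0.00326). The wild-type call was lost under a scaling over detected probes (adjusted p = 0.149), and of its 3 further probes 2 were called lower there and 1 was not called (-0.045 ± 0.14). Psmb5, the chymotrypsin-like site, had levels of 8.25, 8.50 and 8.66 in condensing knockdown cells and 8.08, 8.18 and 8.71 in condensing wild type, against 7.26, 8.42 and 8.96 in round knockdown cells and 7.26, 8.48 and 8.63 in round wild type. The 4 groups overlapped, and the stage difference was 0.30 ± 0.24 in the knockdown (adjusted p = 0.282) and -0.03 ± 0.24 in wild type (adjusted p = 0.932), with 95% intervals of -0.19 to 0.79 and -0.51 to 0.46.

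**Figure D4:**
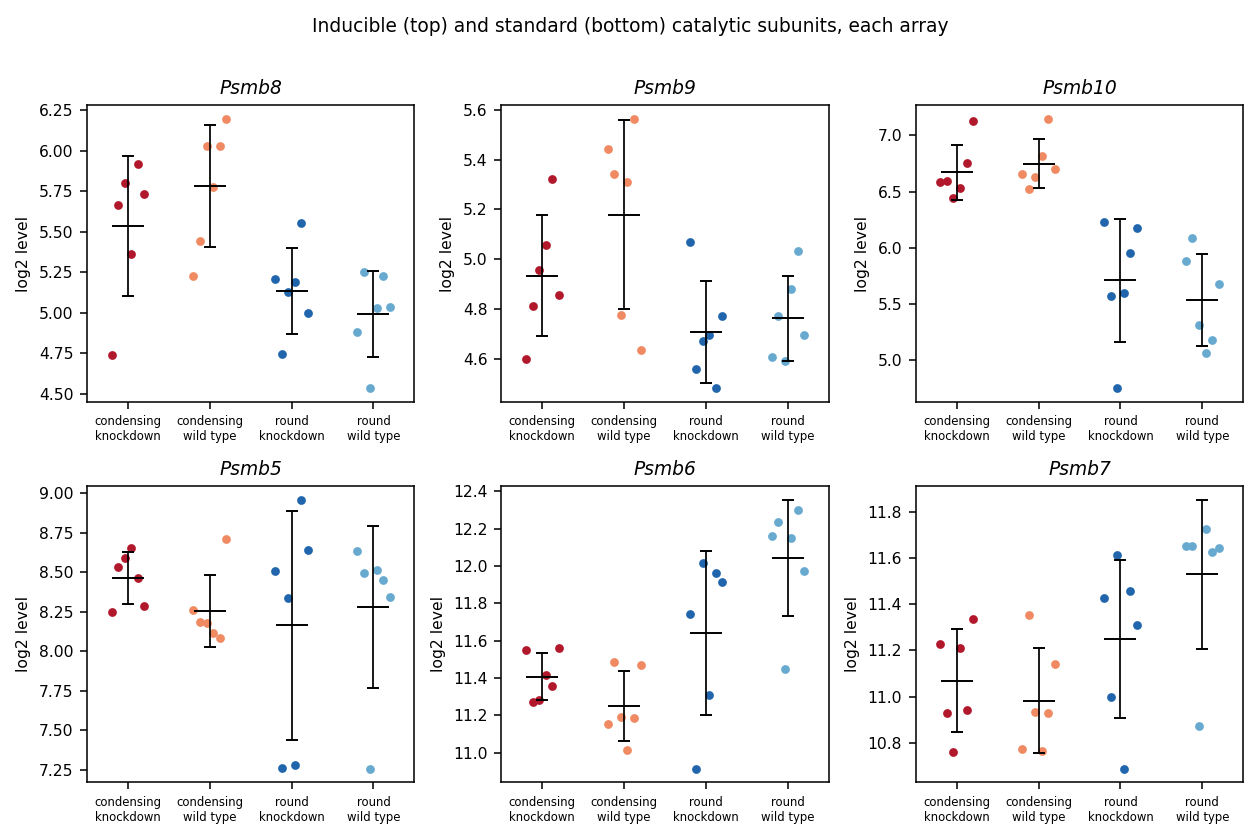
Log2 level on each array (vertical axes) of the inducible beta subunits Psmb8, Psmb9 and Psmb10 and of the standard subunits Psmb5, Psmb6 and Psmb7 in the 4 groups of 6 arrays; crosses are mean and SD. Psmb10 separates the stages completely, and the round arrays of Psmb5, Psmb6 and Psmb7 each include low values.

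Psmb3, Psmb4, Psmb1 and Psmb2 carry no cutting site. Psmb3 gave 0.75 ± 0.19 in the knockdown (adjusted p = 9.03e-04) and 0.43 ± 0.19 in wild type (adjusted p = 0.0459). Psmb4 gave -0.34 ± 0.17 in the knockdown (adjusted p = 0.0882) and -0.57 ± 0.17 in wild type (adjusted p = 0.00488). Psmb1 and Psmb2 were not called in either genotype, although a second Psmb2 probe was called lower in wild type, at -0.76 ± 0.19.

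Without the 3 arrays that stood apart, more core genes were called. Leaving out round arrays that are low in these genes raises the round mean, so the added falls are not separate support for a lower level. In the knockdown 4 core genes were then higher and 5 lower (Psma4 at -0.32, Psma5 at -0.51, Psmb4 at -0.64, Psmb6 at -0.51 and Psmb7 at -0.39), where with all arrays 3 were higher and 0 lower; the added rise was Psma8, at 0.32. In wild type 3 were higher and 7 lower, where with all arrays 3 were higher and 5 lower, and the added falls were Psmb1 at -0.37 and Psmb2 at -0.29. Over all members, 30 were called in the knockdown (11 higher, 19 lower), against 63.6% of all genes, and 34 in wild type (10 higher, 24 lower), against 67.6% of all genes. In each genotype 1 of these rises was Psme3ip1, which is counted among the falls with all arrays and was then represented by another of its probes.

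Psme1 and Psme2 form the PA28 ring that opens the core, and both rose in both genotypes. Psme1 levels were 7.22, 7.29 and 7.46 in condensing knockdown cells and 6.91, 7.36 and 7.57 in condensing wild type, against 5.34, 6.12 and 6.44 in round knockdown cells and 5.62, 6.27 and 6.49 in round wild type. Every condensing array exceeded every round array. It differed between stages by 1.29 ± 0.16 in the knockdown (adjusted p = 7.83e-08) and 1.17 ± 0.16 in wild type (adjusted p = 3.89e-07), and a second Psme1 probe gave 0.48 in the knockdown and 0.50 in wild type.

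Psme2 had levels of 5.41, 6.06 and 6.36 in condensing knockdown cells and 5.10, 5.92 and 6.12 in condensing wild type, against 4.47, 4.84 and 5.33 in round knockdown cells and 4.80, 4.86 and 5.11 in round wild type. The stages separated in the knockdown and overlapped slightly in wild type. The stage difference was 1.09 ± 0.18 in the knockdown (adjusted p = 9.26e-06) and 0.81 ± 0.18 in wild type (adjusted p = 3.54e-04), and the probe was detected on 11 of 12 condensing and 3 of 12 round arrays. Psme1 and Psme2 lie on both sides of Emc9 on chromosome 14. Psme3, the subunit of a nuclear activator, had levels of 8.12, 8.16 and 8.22 in condensing knockdown cells and 7.82, 8.02 and 8.22 in condensing wild type, against 7.87, 8.01 and 8.32 in round knockdown cells and 7.70, 7.91 and 8.28 in round wild type. These overlapped, and its stage difference was 0.13 ± 0.10 in the knockdown (adjusted p = 0.258) and 0.04 ± 0.10 in wild type (adjusted p = 0.749).

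Psmc3, an ATPase of the base, had the largest fall of the members in wild type. Its levels were 12.22, 12.30 and 12.47 in condensing knockdown cells and 12.13, 12.25 and 12.43 in condensing wild type, against 12.92, 13.07 and 13.39 in round knockdown cells and 12.998, 13.21 and 13.44 in round wild type. No condensing array reached a round array. Between stages it differed by -0.81 ± 0.10 in the knockdown (adjusted p = 4.13e-08) and -0.97 ± 0.10 in wild type (adjusted p = 1.53e-09). Psmc2 gave -0.40 ± 0.09 in the knockdown (adjusted p = 2.01e-04) and -0.39 ± 0.09 in wild type (adjusted p = 2.31e-04), but its second probe was called higher, at 0.34 ± 0.11 and 0.58 ± 0.11, and the probe used turned to a call of the opposite sign under a scaling over detected probes. Psmc1 gave -0.23 ± 0.11 in the knockdown (adjusted p = 0.068) and -0.33 ± 0.11 in wild type (adjusted p = 0.0101), and Psmc4 was not called in either genotype. Psmc5 was not called at the probe used, but its second probe was called lower in both genotypes, at -0.55 ± 0.12 in the knockdown and -0.83 ± 0.12 in wild type. The probe used was called lower too without the 3 arrays that stood apart, at -0.28 in each genotype.

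Psmd2, a scaffold of the base that binds ubiquitin shuttle proteins, had levels of 6.04, 6.53 and 6.88 in condensing knockdown cells and 6.12, 6.45 and 6.84 in condensing wild type, against 6.81, 7.17 and 7.44 in round knockdown cells and 6.90, 7.14 and 7.73 in round wild type. The stages separated in wild type and overlapped slightly in the knockdown. Its stage difference was -0.65 ± 0.16 in the knockdown (adjusted p = 6.78e-04) and -0.75 ± 0.16 in wild type (adjusted p = 1.37e-04). Psmd1, the other large scaffold, gave -0.55 ± 0.17 in the knockdown (adjusted p = 0.00481) and -0.50 ± 0.17 in wild type (adjusted p = 0.0104).

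In the lid, Psmd12 gave -0.65 ± 0.11 in the knockdown (adjusted p = 1.53e-05) and -0.69 ± 0.11 in wild type (adjusted p = 6.55e-06), and Psmd13 gave -0.52 ± 0.10 in the knockdown (adjusted p = 2.98e-05) and -0.59 ± 0.10 in wild type (adjusted p = 6.31e-06). Both genes were lower on every condensing array than on any round array of the same genotype. Psmd11 was also lower in both genotypes, at -0.45 ± 0.14 in the knockdown and -0.42 ± 0.14 in wild type. Psmd14, the deubiquitinating enzyme of the lid, was called higher in the knockdown, and its difference was 0.35 ± 0.14 in the knockdown (adjusted p = 0.029) and 0.15 ± 0.14 in wild type (adjusted p = 0.344). Psmd4, a ubiquitin receptor, and Psmd7 and Psmd8 were called in neither genotype with all arrays. Without the 3 arrays that stood apart, Psmd7 was called higher in the knockdown, at 0.24, and Psmd4 and Psmd8 were called lower in wild type, at -0.21 and -0.35. One of 2 further Psmd1 probes and the second Psmd11 probe were called in neither genotype, the second probe of Psmd12 was not called in wild type (-0.10 ± 0.15), and that of Psmd14 was not called in the knockdown (0.29 ± 0.16). One of 2 further Psmd7 probes was called lower in wild type, at -0.30 ± 0.13, and a second Psmd8 probe, detected on 7 arrays, was called higher in the knockdown, at 0.39 ± 0.16.

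Psmd6, a lid subunit near background, was detected on 5 of 12 condensing and 9 of 12 round arrays. Its levels were 4.78, 5.05 and 5.23 in condensing knockdown cells and 4.77, 5.19 and 5.30 in condensing wild type, against 5.16, 5.26 and 5.64 in round knockdown cells and 4.61, 5.10 and 5.51 in round wild type. They overlapped, and the difference of -0.32 ± 0.14 in the knockdown (adjusted p = 0.0473) and 0.01 ± 0.14 in wild type (adjusted p = 0.967) turned sign in the knockdown under a scaling over detected probes.

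Among the assembly chaperones, Psmg2, which pairs with Psmg1 to start the alpha ring, had levels of 9.0, 9.17 and 9.21 in condensing knockdown cells and 9.11, 9.29 and 9.37 in condensing wild type, against 9.55, 10.14 and 10.23 in round knockdown cells and 9.49, 10.11 and 10.30 in round wild type. It was lower on every condensing array than on any round array. The stage difference was -0.85 ± 0.13 in the knockdown (adjusted p = 2.27e-06) and -0.77 ± 0.13 in wild type (adjusted p = 9.58e-06), and Psmg1 was called in neither genotype. Psmg3, which acts later on the alpha ring, had levels of 5.30, 5.78 and 6.24 in condensing knockdown cells and 5.40, 5.66 and 5.82 in condensing wild type, against 4.70, 4.79 and 5.46 in round knockdown cells and 4.51, 5.04 and 5.15 in round wild type. Every condensing array of wild type was above the round ones, while the knockdown overlapped through replicate 9 of the round group. Its stage difference was 0.85 ± 0.15 in the knockdown (adjusted p = 1.76e-05) and 0.68 ± 0.15 in wild type (adjusted p = 2.86e-04), and the probe was detected on 12 of 12 condensing and 3 of 12 round arrays.

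Psmd5, Psmd9 and Psmd10 help to build the base. Psmd5 had levels of 4.77, 5.18 and 5.51 in condensing knockdown cells and 4.65, 4.93 and 5.01 in condensing wild type, against 5.16, 5.86 and 6.10 in round knockdown cells and 5.36, 5.66 and 5.90 in round wild type. It was not well above background on any condensing wild-type array, where it was at least 1.39-fold lower (adjusted p = 2.45e-05), with measured means of 4.88 and 5.65, and this call was lost under a scaling over detected probes (adjusted p = 0.0971). In the knockdown the stage difference was -0.69 ± 0.14 (adjusted p = 1.07e-04).

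Psmd9 had levels of 6.15, 6.68 and 6.90 in condensing knockdown cells and 6.07, 6.45 and 6.57 in condensing wild type, against 6.13, 7.29 and 7.32 in round knockdown cells and 6.41, 7.20 and 7.53 in round wild type. The lowest round arrays overlapped the condensing ones. Its stage difference was -0.35 ± 0.20 in the knockdown (adjusted p = 0.127) and -0.74 ± 0.20 in wild type (adjusted p = 0.00206). Psmd10 gave -0.30 ± 0.16 in the knockdown (adjusted p = 0.0994) and -0.57 ± 0.16 in wild type (adjusted p = 0.00225), and 2 further probes of it were called lower in the knockdown, at -0.55 and -0.34. Without the 3 arrays that stood apart, both genes were called lower in the knockdown, Psmd9 at -0.71 (adjusted p = 4.16e-05) and Psmd10 at -0.51 (adjusted p = 3.15e-05), and Psmg1 was called lower in wild type, at -0.21.

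The genes Psmc3ip and Psme3ip1 carry the prefix but were placed in none of the roles above. Psmc3ip, which encodes a factor of meiotic recombination, gave -0.37 ± 0.13 in the knockdown (adjusted p = 0.015) and -0.60 ± 0.13 in wild type (adjusted p = 2.17e-04), and its knockdown value turned sign under a scaling over detected probes. Psme3ip1 was called lower at the probe used, with -0.49 ± 0.11 in the knockdown (adjusted p = 2.83e-04) and -0.57 ± 0.11 in wild type (adjusted p = 5.03e-05), while another of its 3 probes was called the opposite way, at 2.22 in the knockdown and 2.26 in wild type. Of 26 further probes of 19 members, 16 shared the wild-type call of the probe used, for 8 only 1 of the pair was called, and 2 (of Psmc2 and Psme3ip1) were called the opposite way.

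The stage differences in knockdown and wild type had a Pearson correlation of 0.946 over the members and 0.957 over all genes. In both genotypes, 7 members (17.1%) were called higher and 11 (26.8%) lower, against 26.4% and 29.1% of all genes. None of the members was called in opposite directions. The shared calls were 90% of the members' calls in the knockdown and 64.3% of those in wild type. Over all genes, 2836 were called higher and 3130 lower in both, out of 6765 calls in the knockdown and 6903 in wild type. This is a larger part of the wild-type calls than for the members.

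Other genes of the pathway formed a list of 33 symbols, some of them older names of the same gene, of which 15 were tested. In condensing cells 3 of the 15 were called higher and 5 lower in the knockdown, and 4 higher and 5 lower in wild type. Of all genes, 30.5% were called higher and 32.4% lower in the knockdown, and 30.3% and 33.8% in wild type. Rad23b, a shuttle that brings ubiquitin-tagged proteins to the proteasome, gave 0.85 ± 0.10 in the knockdown (adjusted p = 1.45e-08) and 0.88 ± 0.10 in wild type (adjusted p = 8.49e-09). Pomp, which helps the core mature, gave 1.05 ± 0.19 in the knockdown (adjusted p = 1.94e-05) and 0.75 ± 0.19 in wild type (adjusted p = 9.53e-04). Vcp, an ATPase that pulls ubiquitin-tagged proteins out of complexes, gave -0.61 ± 0.13 in the knockdown (adjusted p = 2.21e-04) and -0.62 ± 0.13 in wild type (adjusted p = 2.06e-04). Nfe2l2, the gene of NRF2, gave -0.66 ± 0.17 in the knockdown (adjusted p = 9.68e-04) and -0.62 ± 0.17 in wild type (adjusted p = 0.00172), and Nfe2l1, the gene of NRF1, was called in neither genotype.

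Markers of other cells moved with the stage. Of 16 macrophage and leukocyte markers, 13 were tested and 12 were higher in condensing cells in each genotype. Tyrobp, Ptprc and Ctss were not among the genes tested. The summed intensity of the 13 was 3906 to 5541 in condensing knockdown and 4094 to 5821 in condensing wild-type arrays, against 1062 to 1721 in round knockdown and 1145 to 1702 in round wild-type arrays. Of 10 Sertoli markers, 7 were tested and all 7 were higher in each genotype, while Wt1, Ctsl and Clu were not among the genes tested. The mean level of the 7 was 10.74 to 10.89 in condensing knockdown and 10.42 to 10.76 in condensing wild-type arrays, against 7.07 to 7.97 in round knockdown and 7.12 to 7.43 in round wild-type arrays. In wild type, 6 of 7 stromal, 4 of 5 endothelial, 2 of 3 Leydig and 5 of 5 erythroid markers were higher too. The counts in the knockdown were 6, 3, 2 and 5. The erythroid list shifted most, with a median stage difference of 5.73 in the knockdown and 5.97 in wild type. Its summed intensity was 59106 to 69359 in condensing knockdown and 50348 to 60866 in condensing wild-type arrays. In round arrays it was 525 to 2051 and 409 to 1389. Of 10 tested markers of meiotic spermatocytes, Psmc3ip among them, 8 were lower and 1 higher in wild type. The part of these cells in the results for the inducible subunits, the activators and the other members was not tested.

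The knockdown was compared with wild type within each stage to see whether the proteasome genes depend on CBP and p300. By limma 0 of the 41 members were called in condensing cells, against 0.539% of all genes, and 0 in round cells, against 0% of all genes. At an unadjusted p under 0.05, 0 members passed in condensing cells, against 8.81% of all genes, and 1 in round cells, against 3.61%.

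In condensing cells the members with the smallest p were Psma8, at 0.22 ± 0.13 (adjusted p = 0.656), Psme3, at 0.17 ± 0.10 (adjusted p = 0.68), and Psmd5 (adjusted p = 0.687), whose means of 5.12 in the knockdown and 4.88 in wild type give no fold because wild type was not well above background. In round cells they were Psmb6, at -0.40 ± 0.16, Psmd6, at 0.27 ± 0.14, and Psma4, at -0.26 ± 0.14, each with an adjusted p of 0.999. For all of these the knockdown and wild-type arrays overlapped.

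All 12 tested core genes (5 alpha and 7 standard beta) had values above 0 in condensing cells, with a median of 0.13 (11 of 12 under a scaling over detected probes, with array weights, or without replicate 15 or 16 of wild type or 24 of the knockdown). All 12 had values below 0 in round cells, with a median of -0.19 (11 of 12 over detected probes, without background correction, with an offset of 50 or in the authors' table, and 10 with array weights). Leaving out round knockdown replicate 8 or 10 alone gave 10 of 12, and leaving out round wild-type replicate 1, 2 or 5 gave 11. Without the 3 arrays that stood apart, 9 of the 12 were below 0 in round cells, with a median of -0.08, and 12 were above 0 in condensing cells. Of all 10759 genes, 5642 were above 0 in condensing cells, with a median of 0.009. In round cells 5282 of all genes were below 0, with a median of 0.003. The core genes were read from the same arrays, so their common sign does not count as repeated observations.

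The difference between the knockdown effects, condensing minus round, was called for 0 members, against 0.0465% of all genes, and passed an unadjusted p under 0.05 for 1 member, against 6.94%. The smallest p-values were those of Psmb6, at 0.56 ± 0.23 (adjusted p = 0.642), and Psmb1, at 0.42 ± 0.22 (adjusted p = 0.735). Psmb1 levels were 9.50, 9.63 and 9.86 in condensing knockdown cells and 9.31, 9.46 and 9.61 in condensing wild type, against 8.96, 9.64 and 9.91 in round knockdown cells and 9.07, 9.83 and 10.01 in round wild type. The genotypes overlapped within each stage.

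Misses in these comparisons do not show equal levels. Over the 41 members the 95% intervals of the knockdown level reached from 65.0% to 162% of wild type in condensing cells and from 60.3% to 150% in round cells.

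**Figure D5:**
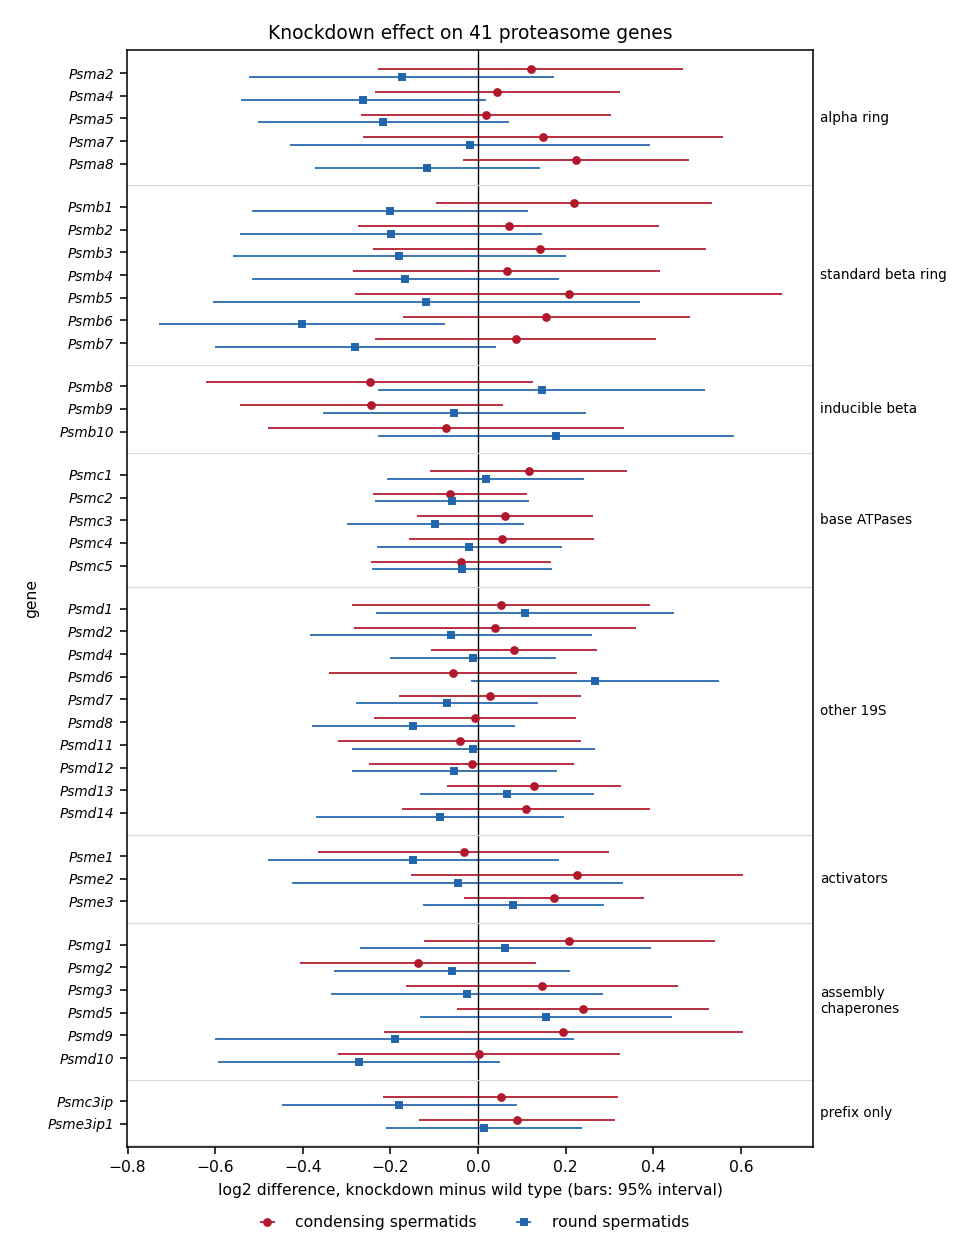
Knockdown minus wild-type log2 difference of the 41 tested genes (horizontal axis; bars are 95% intervals) in condensing and in round spermatids, grouped by role. Of all the intervals drawn, that of Psmb6 in round cells is the one that leaves out 0.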

How the data were processed

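RNA of 24 spermatid samples, 6 in each of 4 groups, was labelled with biotin and hybridised to bead arrays. The authors deposited a table of 45281 probes that is, per the file headers, not normalized: it holds a linear intensity and a detection p-value for every probe and array. They also deposited a second intensity table, whose array medians of 130.3 to 130.4 and unchanged ranks fit quantile normalization. The authors' software is not given in the sources used here.

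Here the intensities were background-corrected by normexp from the detection p-values, with an offset of 16, quantile normalized and log2-transformed in limma 3.58.1 (R 4.3.3). A probe was kept where at least 6 arrays had a detection p under 0.05, which left 19086. The probe with the highest mean stood for its gene, giving 10759 genes. A single limma fit of 4 group means gave 5 contrasts, adjusted by Benjamini-Hochberg over all genes. A probe undetected on a whole group has only a bound there: the other group's mean was set against the mean, per array, of the higher of its own signal and the lowest signal among detected probes. Precision is set by how many arrays each group has. The procedure was tested on simulated data.

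Array levels are given for the 6 largest called rises and falls in wild type, for the 3 smallest p-values of each knockdown comparison, and for Psma7, Psma8 and the catalytic beta subunits. The members and lists were chosen with earlier results of these data known. Other scalings, background corrections, offsets, filters, probe rules, variance models and array weights were tried, and arrays were left out. Promoters were searched for 4 motifs: the 2 reported, and 2 chosen after values were seen, which are not shown.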

Additional observations from a re-analysis of the deposited data

Results flagged for a closer look

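In 84 sets of 6 arrays, 8 values lay farther from the rest of their group than Dixon's limit for 6 values allows. Chance flags about 1 in 20 groups. In round knockdown cells, replicate 9 was high for Psmg3 (5.46) and replicate 11 low for Psmd5 (5.16). In condensing wild type, replicate 14 was low for Psme1 (6.91) and replicate 18 high for Psmb5 (8.71). In round wild type, replicate 3 was low for Psma7 (6.38), Psmb5 (7.26), Psmb7 (10.87) and the mean of all members (8.79).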

How the results depend on the processing

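No paired analysis was possible because the labels number the arrays 1 to 24 and the groups share no number. A slide block was not run because the file headers name no slide. Over 35 alternatives, the members called by stage numbered 18 to 30 in the knockdown (18 to 26 with 1 array left out) and 25 to 35 in wild type (25 to 30), while 36.3% to 70.6% and 36.8% to 73.1% of all genes were called, and 0 members were called in each of the 3 knockdown comparisons. Scaling moved the split. The share of stage calls that were higher was 40% in the knockdown and 32.1% in wild type under quantile normalization, 17.2% and 20% under median scaling over all probes, and 54.5% and 52% over the probes detected on all arrays, an alternative chosen after seeing the data. Of the calls over all genes, 48.5% and 47.3%, 32.4% and 28.3%, and 64.7% and 66.8% were higher under these 3 settings. The wild-type median of all genes was then -0.03, -0.31 and 0.30. Of 9 wild-type rises 7 were called under both median scalings, as were 12 of 19 falls; over detected probes Psma5, Psmb4, Psmb7, Psmd1, Psmd5 and Psmc3ip were no longer called and Psmc2 was called the opposite way. In the knockdown, Psmb5 turned to -0.18 and Psma8 to -0.20 under median scaling, Psmb6 to 0.042 and Psmb7 to 0.045 over detected probes, and Psmb5 to -0.15 without round wild-type replicate 3 and round knockdown replicates 8 and 10. In wild type, Psma8 was 0.20 with the mean of its probes, and Psmb5 ran from -0.23 to 0.043 with 1 array left out. Each was also called lower in wild type in 1 of the 35 alternatives, with values reaching -0.68 for Psma8 and -0.63 for Psmb5. In the knockdown, Psma8 was called higher in 9 of the 35. The cause was not tested. Psmb8, Psmb9, Psmb10, Psmd5, Psmd6, Psme2 and Psmg3 were undetected on some arrays, where signal over background limits their values.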
